A study of Mus musculus with 23 samples.

Results

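The interleukin-1 (IL-1) family genes measured here were the agonist ligands Il1a and Il1b, the receptor antagonist Il1rn, the ligands Il18 and Il33, the signalling receptor Il1r1, the shared accessory receptor chain Il1rap and the IL-33 receptor Il1rl1. They were taken by gene name, and all 8 of 8 names had 1 row among the 54354 genes of the table. RNA was sequenced in bulk from 11 GFP-positive and 12 GFP-negative libraries. All of them derived from organoids that carried Basp1-eGFP-DTR together with AKP-tdT and had been placed orthotopically in the colon of mice; the primary tumours were digested and sorted on green fluorescent protein, which reports Basp1. Both populations had the same genotype label, Basp1-GFP, and were told apart by the sort gate. The label describes the samples and not each sequenced cell, and macrophage and fibroblast markers were counted as well. DTR is the diphtheria toxin receptor and tdT a red fluorescent marker. The strain, age, sex and diet of the hosts are not stated in the labels, nor is whether the organoids came from 1 clone, and the extraction text speaks of organoids where the design text speaks of tumours.

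IL-1 family cytokines are alarm signals of barrier tissues. Il1a and Il1b encode ligands that bind IL1R1 and recruit IL1RAP to start MyD88 and NF-kB signalling, whereas the product of Il1rn occupies IL1R1 without recruiting IL1RAP. IL-1β and IL-18 are made as precursors that inflammasome caspases cleave. IL-1α and IL-33 are held in cells and released on damage, and IL-33 acts through ST2, the product of Il1rl1, again with IL1RAP. In the gut, macrophages and other myeloid cells are a main source of IL-1β, epithelial cells express Il18, and stromal cells are a known source of IL-33.

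Depth was low and uneven. GFP-positive libraries held 37125 to 4238877 counts (median 1418140, n = 11) and GFP-negative libraries 25458 to 2304316 (median 144334, n = 12), with 1 and 3 libraries under 100000 counts. The library numbers in the labels fell into 2 runs, here library set 1 (5 GFP-positive and 6 GFP-negative libraries) and library set 2 (6 and 6), and each comparison was repeated within each set. The epithelial markers summed to 3391 to 9153 CPM (counts per 1000000 counts of the library) in GFP-positive and 2599 to 6885 CPM in GFP-negative libraries, so epithelial transcripts were present in every library. For Basp1, the gene behind the sort, the mean was 57.8 ± 32.9 CPM (SD) in the 11 GFP-positive and 33.4 ± 27.0 CPM in the 12 GFP-negative libraries, a log2 fold change of 0.63 (SE 0.38) that did not pass the threshold (edgeR adjusted p = 0.997). GFP-positive 3 stood apart in macrophage markers, which summed to 37077 CPM there against 188 to 1424 CPM in the other GFP-positive libraries, and values that it moves widely are given with and without it.

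None of the interleukin-1 family genes passed the threshold between the populations in the fits without a replicate block, which are the ones given here. Il33 was the member nearest to it, at lower levels in GFP-positive libraries. Il1b was lower in GFP-positive libraries for 9 of the 10 library identifiers that had both, some of them on few counts. Lower values for at least 9 of 10 were found in 0.967% of the 6621 genes tested. The labels do not say that an identifier marks 1 tumour. Il1rn was abundant in both populations. Over all libraries 5 of the 8 genes had enough counts to be tested. Of these, 0 were called by edgeR's quasi-likelihood test at a Benjamini-Hochberg adjusted p of 0.05, against 0.0151% of the 6621 genes tested. An unadjusted p under 0.05 was found for 1 of the 5, beside 328 of the 6621 genes. DESeq2 called 0 of the 5, beside 0.362% of all genes. Of these 5 genes, 3 had a negative and 2 a positive log2 fold change, with a median of -0.14, beside a median of 0.07 over all genes tested.

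**Figure D1:**
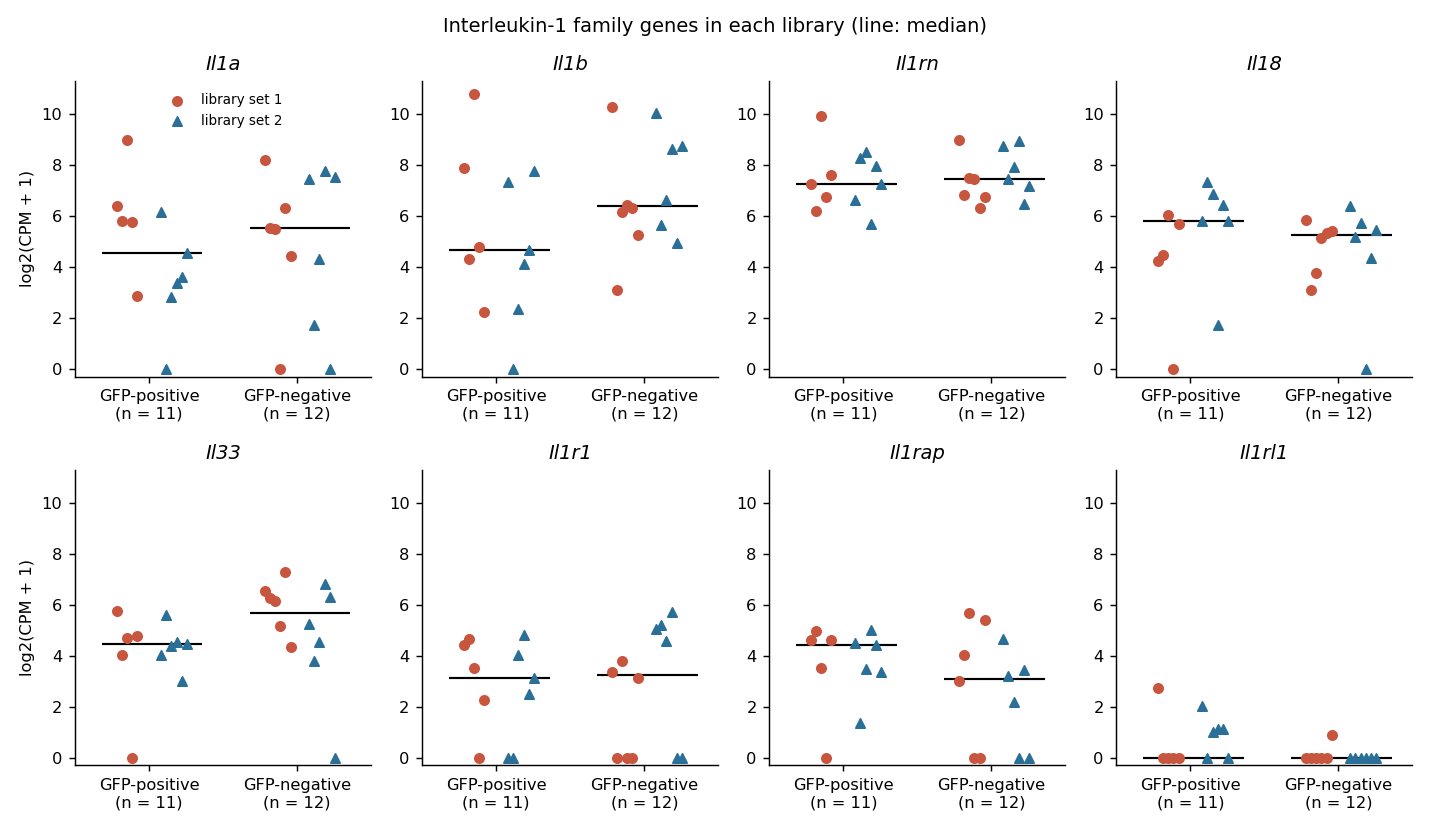
Level of each interleukin-1 family gene in every library, as log2(CPM + 1), with GFP-positive libraries at the left and GFP-negative libraries at the right of each panel; circles are library set 1, triangles library set 2, and the line is the group's median. The groups overlap in all 8 panels, and Il1rl1 sits at 0 in 6 of 11 GFP-positive and 11 of 12 GFP-negative libraries.

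Levels were first set side by side per kilobase of the longest coding transcript, over the 10 GFP-positive and 9 GFP-negative libraries of at least 100000 counts. In GFP-positive libraries the median level, in CPM per kilobase, was 70.5 for Il1rn, 62.3 for Il18, 16.1 for Il1b, 8.55 for Il1a, 8.51 for Il33, 4.66 for Il1rap, 1.56 for Il1r1 and 0.0966 for Il1rl1. In GFP-negative libraries the same medians were 71.9 for Il1rn, 51.6 for Il1b, 39.3 for Il18, 27.5 for Il33, 22.5 for Il1a, 2.18 for Il1r1, 2.17 for Il1rap and 0 for Il1rl1. Ligand transcripts thus stood above receptor transcripts in the order of medians of both populations. Neighbours in that order overlapped in range. Il18 exceeded Il1b in 5 of 10 GFP-positive libraries and Il1b exceeded Il18 in 5 of 9 GFP-negative libraries, while Il1rap exceeded Il1r1 in 9 of 10 GFP-positive libraries and Il1r1 exceeded Il1rap in 5 of 9 GFP-negative libraries.

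The agonist genes Il1a (ENSMUSG00000027399, chromosome 2, 129299610 to 129309972, minus strand, mm10) and Il1b (ENSMUSG00000027398, chromosome 2, 129364570 to 129371139, minus strand) lie close together on chromosome 2, where Il1rn (ENSMUSG00000026981, 24336853 to 24351494, plus strand) also lies. Across the 19 libraries of at least 100000 counts, log2 CPM of Il1a and Il1b had a Pearson correlation of 0.81, against 0.44 for Il1a with Il1rn and 0.47 for Il1b with Il1rn. These are descriptions, since libraries differ in depth and some share an identifier. Their promoter windows, 250 bases before to 50 after the RefSeq transcription start, are shown because the agonists ran together and the antagonist less so. They are read 5′ to 3′ on the gene's strand from RefSeq on GRCm38.p6, the mm10 build: chr2:129309923-129310222 (minus) for Il1a, chr2:129371090-129371389 (minus) for Il1b and chr2:24336610-24336909 (plus), the most upstream of 3 windows, for Il1rn. Capitals mark TATAAA and the AP-1 motif TGANTCA, searched on both strands.
Il1a: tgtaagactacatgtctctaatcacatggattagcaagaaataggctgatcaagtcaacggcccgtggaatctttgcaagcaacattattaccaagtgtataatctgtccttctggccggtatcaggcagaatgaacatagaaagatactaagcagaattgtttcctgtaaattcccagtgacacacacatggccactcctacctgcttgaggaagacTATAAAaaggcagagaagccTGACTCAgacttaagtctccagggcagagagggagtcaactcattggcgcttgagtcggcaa
Il1b: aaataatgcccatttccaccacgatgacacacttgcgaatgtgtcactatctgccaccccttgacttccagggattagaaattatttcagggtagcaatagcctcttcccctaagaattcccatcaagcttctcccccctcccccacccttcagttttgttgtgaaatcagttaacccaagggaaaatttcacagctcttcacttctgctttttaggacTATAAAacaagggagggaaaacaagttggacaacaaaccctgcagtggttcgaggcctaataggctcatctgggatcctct
Il1rn: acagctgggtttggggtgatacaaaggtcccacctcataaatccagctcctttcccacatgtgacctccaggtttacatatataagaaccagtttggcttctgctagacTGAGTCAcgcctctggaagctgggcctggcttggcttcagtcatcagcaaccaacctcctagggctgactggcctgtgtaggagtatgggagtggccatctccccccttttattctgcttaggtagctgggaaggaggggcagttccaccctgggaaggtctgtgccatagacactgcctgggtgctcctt
TATAAA began 32 bases before the Il1a start and 31 bases before the Il1b start, and was absent from this Il1rn window. It was present in 6 of 13 windows of the family and in 13.6% of all 32851 windows. TGANTCA was present in the Il1a window, 12 bases before the start, and in this Il1rn window, 141 bases before it, that is in 2 of 13 windows of the family and in 7.81% of all windows. The PU.1 motif GAGGAAGT was in 0 of 13 windows, beside 3.20% of all windows, and the C/EBP motif TTGCNNAA was in 3 of 13, beside 10.8%. A match shows letters, not a bound site.

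Il1b, whose product is the inflammasome-processed agonist, varied widely between libraries of both populations. It ran from 0 through a median of 24.7 to 1748 CPM in GFP-positive libraries (n = 11) and from 7.62 through a median of 82.6 to 1248 CPM in GFP-negative libraries (n = 12). The ranges overlapped almost wholly, and the highest value of all was that of GFP-positive 3. On the log2 scale the fold change came to -0.35 (SE 1.02, 95% interval -2.47 to 1.77, edgeR adjusted p = 0.997). Without GFP-positive 3 it was -2.16 (edgeR adjusted p = 0.675), without GFP-negative 1 it was 0.14 and without GFP-negative 7 it was 0.05, so its direction rested on single libraries.

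Within library set 2 the populations were further apart in Il1b. GFP-positive libraries ran from 0 through a median of 20.5 to 217 CPM (n = 6) and GFP-negative libraries from 29.4 through a median of 247 to 1045 CPM (n = 6), and the ranges still overlapped. The fit gave a log2 fold change of -2.37 (SE 1.24, edgeR adjusted p = 0.820), or -1.39 without GFP-negative 7. In library set 1 the GFP-positive libraries had 234, 18.9, 1748, 26.9 and 3.75 CPM, and the GFP-negative libraries ran from 7.62 through a median of 74.2 to 1248 CPM (n = 6). Only GFP-positive 1 and 3 were above the GFP-negative median there, and the log2 fold change was 0.71 (SE 1.59, edgeR adjusted p = 0.969), or -1.93 without GFP-positive 3. The test of the difference between the sets gave -3.09 (set 2 minus set 1, 95% interval -7.27 to 1.08, edgeR adjusted p = 0.820). It was -0.47 without GFP-positive 3 and -5.73 without GFP-negative 1. In this test 0 of 5 members tested were called, beside 0% of 6621 genes. An unadjusted p under 0.05 was found for 0 of the 5, beside 424 of the 6621 genes. DESeq2 called 0 of the 5, beside 0.0604%.

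Library names start with an identifier, and 10 identifiers had both populations; the labels do not say that libraries of 1 identifier came from 1 tumour. Il1b was lower in the GFP-positive libraries of 9 of 10 identifiers. Of the 6621 genes tested, 0.967% were lower in at least 9 of 10. The exception was 7789-7795, with 1748 CPM in GFP-positive 3 against 37.3 CPM in GFP-negative 6. In 3034 the values were 234 CPM (GFP-positive) and 1248 CPM (GFP-negative), in 5780 they were 160 CPM (GFP-positive) and 1045 CPM (GFP-negative), and in 7968 they were 217 CPM (GFP-positive) and 431 CPM (GFP-negative). In 7907 they were 16.3 CPM (GFP-positive) and 396 CPM (GFP-negative), so the size of the gap differed widely between identifiers. Some directions rested on few counts. In 7421 the values were 3.75 CPM (GFP-positive, 3 counts) and 7.62 CPM (GFP-negative, 1 count). In 8045-8050 they were 26.9 CPM (GFP-positive, 1 count) and 82.6 CPM (GFP-negative, 7 counts). In 7914 they were 24.7 CPM (GFP-positive, 42 counts) and 29.4 CPM (GFP-negative, 3 counts). In library set 2 alone, Il1b was lower in GFP-positive libraries of 6 of 6 identifiers, beside 3.08% of the 6952 genes tested there. These 6 include 7914.

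**Figure D2:**
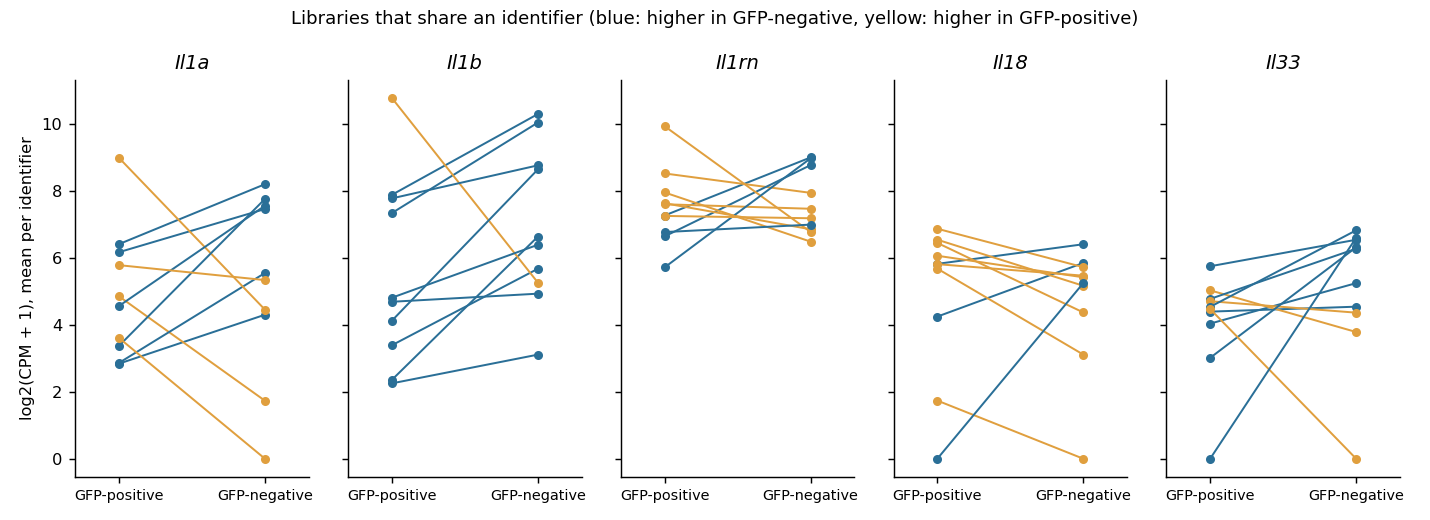
Level of 5 members, as log2(CPM + 1), in libraries that share an identifier, with the GFP-positive value at the left and the GFP-negative value at the right of each line (mean where an identifier has several libraries of a population). For Il1b, 9 of 10 lines are higher at the GFP-negative end, and the line of 7789-7795 runs the other way.

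Macrophage and monocyte markers, all 14 of which had counts, are given beside Il1b. Their sum ranged from 188 to 37077 CPM in GFP-positive libraries and from 505 to 8780 CPM in GFP-negative libraries. In library set 2 it ranged from 188 to 1132 CPM in GFP-positive libraries and from 2824 to 7535 CPM in GFP-negative libraries, with no overlap. There, 9 of 10 tested markers were called lower in GFP-positive libraries by edgeR, beside 1.24% of all 6952 genes. The 3 genes most like Il1b across the 19 deeper libraries were Fcgr3, an Fc receptor (r = 0.94), Bcl2a1b, of the anti-apoptotic BCL2A1 family (r = 0.93), and Plek, pleckstrin (r = 0.93). The neutrophil markers, of which 10 of 11 had counts and Camp had none, summed to 136 to 603 CPM in GFP-positive and 122 to 921 CPM in GFP-negative libraries. Ly6g had the most counts of them (3790 over all libraries, S100a8 next with 832) and weighs most in that sum. Within GFP-positive libraries, 1, 3, 6 and 11 had both the highest macrophage sums and the highest Il1b values. Within GFP-negative libraries, 1, 7, 10 and 12 had both. Between the populations the order was not the same. GFP-positive 1, 6 and 11, with macrophage sums of 1424, 1132 and 932 CPM, had 234, 160 and 217 CPM of Il1b, while GFP-negative 8, 9 and 11, with sums of 3043, 5248 and 2824 CPM, had 49.9, 97.9 and 29.4 CPM. What part of the Il1b levels came from these cells was not tested. In bulk libraries fewer cells of a type and less RNA per cell cannot be told apart.

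**Figure D3:**
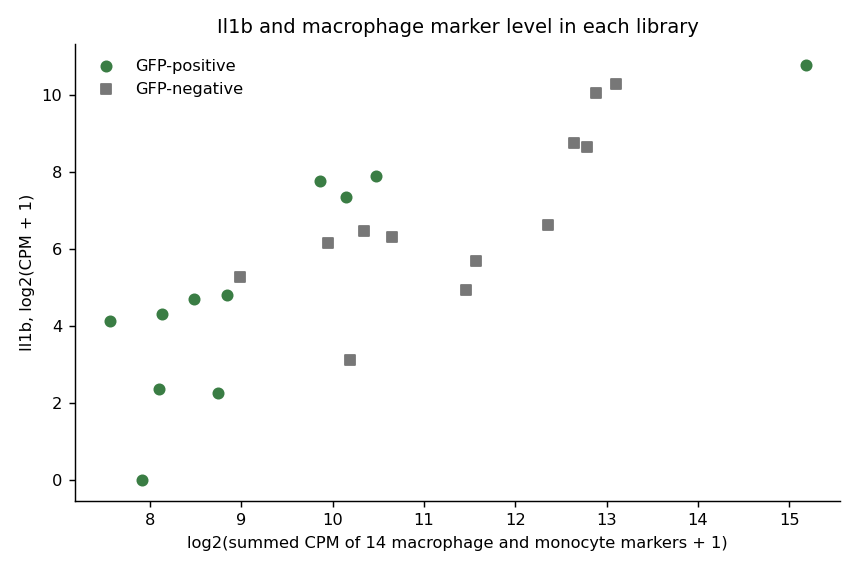
Il1b level, as log2(CPM + 1), against the summed CPM of 14 macrophage and monocyte markers, as log2(sum + 1), with 1 point for each library. GFP-positive 3 is at the top right, at 1748 CPM of Il1b and a marker sum of 37077 CPM, and GFP-positive 7, with no Il1b count, has a marker sum of 239 CPM.

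Il1a, the agonist held in cells, had a pattern like that of Il1b. It ran from 0 through a median of 22.6 to 504 CPM in GFP-positive libraries (n = 11) and from 0 through a median of 45.1 to 292 CPM in GFP-negative libraries (n = 12). GFP-positive 3 was again the highest, and the groups overlapped. edgeR put the log2 fold change at -0.14 (SE 0.89, 95% interval -1.99 to 1.72, edgeR adjusted p = 0.997) and -1.62 without GFP-positive 3 (edgeR adjusted p = 0.758); it was positive without GFP-negative 1 (0.29), 7 (0.04) or 10 (0.02).

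In library set 2, Il1a ran from 0 through a median of 10.3 to 70.7 CPM in GFP-positive libraries (n = 6) and from 0 through a median of 96.5 to 215 CPM in GFP-negative libraries (n = 6). GFP-negative 7, 10 and 12 lay above every GFP-positive one, at 174, 215 and 187 CPM. As a log2 fold change this was -2.39 (SE 1.17, 95% interval -4.97 to 0.20, edgeR adjusted p = 0.795), and the difference from library set 1, where it was 0.85 (SE 1.15), was -3.27 (SE 1.66, edgeR adjusted p = 0.762). Without GFP-positive 3 the log2 fold change in set 1 was -0.93 and the difference between the sets -1.52, and without GFP-negative 1 they were 2.44 and -4.81. It was lower in GFP-positive libraries of 5 of 6 identifiers of set 2 and of 6 of 10 over both sets. GFP-negative 7, 10 and 12 also had macrophage marker sums of 7535, 7039 and 6410 CPM, whose part in the Il1a levels was not tested. The genes most like Il1a were the chemokine gene Cxcl2 (r = 0.88), the apolipoprotein gene Apoc2 (r = 0.88) and Pla2g7, which encodes an enzyme that breaks down platelet-activating factor (r = 0.83).

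Il1rn, the antagonist, had counts in every library, the fewest being 2 in GFP-negative 5 (78.6 CPM), under the floor of 3 counts. It ran from 51.3 through a median of 152 to 972 CPM in GFP-positive libraries (n = 11) and from 78.6 through a median of 174 to 508 CPM in GFP-negative libraries (n = 12). Apart from GFP-positive 3, the GFP-positive libraries stayed at or under 365 CPM. On the log2 scale the fold change came to 0.15 (SE 0.48, 95% interval -0.84 to 1.14, edgeR adjusted p = 0.997) and -0.41 without GFP-positive 3. It was 0.67 (SE 0.82) in library set 1, or -0.73 without GFP-positive 3, and -0.34 (SE 0.51) in library set 2, neither called. Il1rn was higher in GFP-positive libraries of 6 of 10 identifiers. Counts per gene do not separate its secreted from its intracellular forms. Among the genes most like it were Npc2, a lysosomal cholesterol carrier (r = 0.92), and Fuca1, a lysosomal fucosidase (r = 0.88).

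The balance of antagonist and agonist transcripts was taken as the Il1rn share of the counts of Il1rn, Il1a and Il1b together, a measure chosen after the values were seen and therefore not tested. The share ran from 29.9% through a median of 57.1% to 100% in GFP-positive libraries (n = 11) and from 18.9% through a median of 62.9% to 77.0% in GFP-negative libraries (n = 12). The 4 highest shares were all in GFP-positive libraries. GFP-positive 7 had 195 of 195 counts from Il1rn (95% Wilson interval 98.1% to 100%), and its 0 counts of Il1a and Il1b allow up to 4.79 CPM of each. GFP-positive 8 had 1424 of 1464 (97.3%, 96.3% to 98.0%), GFP-positive 5 had 157 of 165 (95.2%, 90.7% to 97.5%) and GFP-positive 10 had 418 of 479 (87.3%, 84.0% to 89.96%). At the other end, GFP-positive 3 had 30.1% (29.1% to 31.2%) and GFP-positive 6 had 29.9% (22.1% to 39.2%). The share was higher in GFP-positive libraries of 8 of 10 identifiers, 61-1 and 7789-7795 being the exceptions. In 61-1 the GFP-positive value is the mean of GFP-positive 2 (49.6%) and 7 (100%), against 77.0% in GFP-negative 8. For some identifiers the intervals overlapped. In 5780 GFP-negative 7 had 26.2% (23.8% to 28.8%), and in 7914 GFP-negative 11 had 75.0% of 12 counts (46.8% to 91.1%). In 8045-8050 GFP-positive 4 had 57.1% of 7 counts, and GFP-negative 4 and 5 had 66.7% and 33.3% of 15 and 6. The macrophage marker sums of GFP-positive 5, 7, 8 and 10 were 428, 239, 273 and 356 CPM, and those of GFP-positive 3 and 6 were 37077 and 1132 CPM. The order was not the same throughout. GFP-positive 9 and 2, with sums of 188 and 280 CPM, had shares of 66.7% and 49.6%, and GFP-negative 8 and 9, with sums of 3043 and 5248 CPM, had shares of 77.0% and 67.7%. The part of these cells in the share was not tested.

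**Figure D4:**
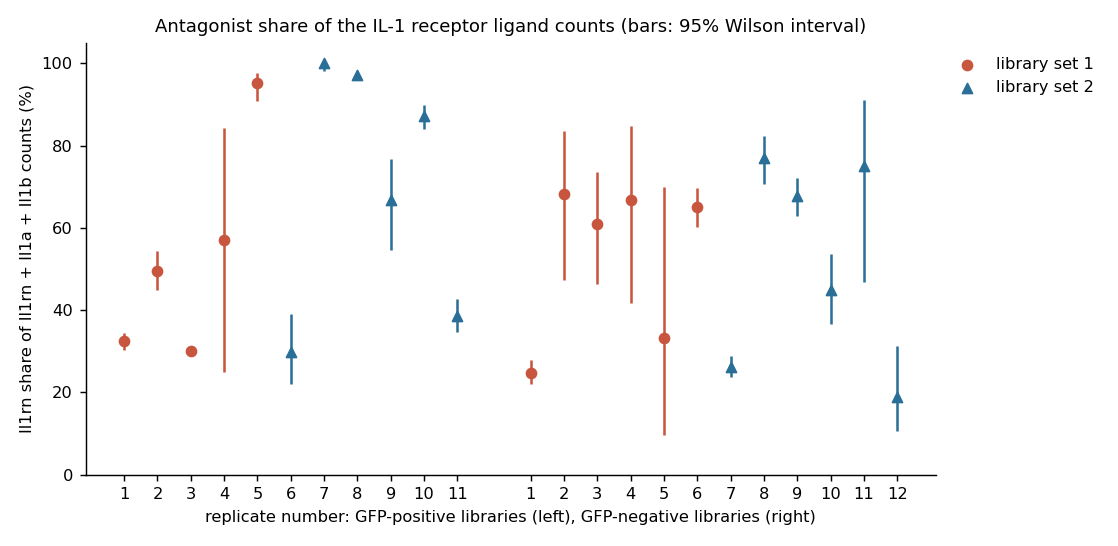
Il1rn share of the Il1rn, Il1a and Il1b counts in each library, in percent, with 95% Wilson intervals that cover counting error only; GFP-positive libraries are at the left and GFP-negative libraries at the right, labelled by replicate number. GFP-positive 5, 7, 8 and 10 lie between 87.3% and 100%, above every GFP-negative library.

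Il18 (ENSMUSG00000039217, chromosome 9, 50554827 to 50581840, plus strand), the gene of an epithelial cytokine that needs inflammasome cleavage, leaned the other way. It ran from 0 through a median of 55.0 to 163 CPM in GFP-positive libraries (n = 11) and from 0 through a median of 37.0 to 83.6 CPM in GFP-negative libraries (n = 12). GFP-positive 7, 8 and 10, with 163, 116 and 85.9 CPM, were above every GFP-negative library, and the rest overlapped. Those 3 libraries were also among the 4 with the highest Il1rn share. The fit gave a log2 fold change of 0.67 (SE 0.49, 95% interval -0.34 to 1.68, edgeR adjusted p = 0.997), with 0.11 (SE 0.56) in library set 1 and 0.89 (SE 0.70, edgeR adjusted p = 0.902) in library set 2. Set 1 medians ran lower in GFP-positive libraries, at 21.0 CPM (n = 5) against 37.0 CPM in GFP-negative libraries (n = 6). There the fold change turned negative in 4 of 11 fits with 1 library left out (range -0.43 to 0.44). Il18 was higher in GFP-positive libraries of 7 of 10 identifiers, some of them on few counts. GFP-negative counts were 1 in 7421, 2 in 7914 and 3 in 7968, and 7907 had 2 GFP-positive counts against 0. The genes most like it were Cope, a coatomer subunit (r = 0.89), Fggy, a carbohydrate kinase (r = 0.86), and Cox7a1, a subunit of cytochrome c oxidase (r = 0.86).

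Il33 (ENSMUSG00000024810, chromosome 19, 29925114 to 29960718, plus strand), the gene of the nuclear alarmin, was lower in GFP-positive libraries by the widest margin relative to its error, without passing the threshold. It ran from 0 through a median of 21.2 to 52.6 CPM in GFP-positive libraries (n = 11) and from 0 through a median of 53.4 to 157 CPM in GFP-negative libraries (n = 12). No GFP-positive library reached the GFP-negative median, while GFP-negative 4, 6, 7, 8, 9 and 12 lay among the GFP-positive values. GFP-negative 2, 3, 5, 10 and 11, above every GFP-positive library, held 10, 11, 4, 13 and 8 counts. GFP-negative 1, also above, held 39. The deepest GFP-negative libraries, 6, 7, 8 and 9, had 19.5, 36.8, 12.8 and 22.2 CPM. Pooled levels were 27.3 CPM in GFP-positive (exact Poisson 95% interval 24.99 to 29.8) and 31.9 CPM in GFP-negative libraries (27.6 to 36.7). These intervals cover counting error only, not the spread between libraries, and they overlapped. Without GFP-positive 1 the GFP-positive level was 19.9 CPM (17.7 to 22.4) and they did not. No GFP-negative library was left out of the pooled levels, and GFP-negative 1 held 39 of the 194 GFP-negative counts. The pooled levels are therefore descriptions. edgeR put the log2 fold change at -1.02 (SE 0.40, 95% interval -1.83 to -0.21, unadjusted p = 0.0153, edgeR adjusted p = 0.949). Leaving out each library in turn kept it between -1.20 and -0.85, none of them called.

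The 2 library sets gave Il33 the same direction. In set 1 the GFP-positive libraries had 52.6, 15.3, 25.03, 0 and 26.3 CPM, and the GFP-negative libraries ran from 19.5 through a median of 73.0 to 157 CPM (n = 6), a log2 fold change of -1.19 (SE 0.52, unadjusted p = 0.0322, edgeR adjusted p = 0.894). In set 2 it was -0.80 (SE 0.59, edgeR adjusted p = 0.892), or -0.32 without GFP-negative 10, with 7.06 to 47.9 CPM in GFP-positive and 0 to 112 CPM in GFP-negative libraries (n = 6 each). The 0 of GFP-negative 12 allows up to 43.1 CPM and that of GFP-positive 4 up to 80.8 CPM. The difference between the sets was 0.37 (SE 0.81, edgeR adjusted p = 0.970). In set 1, 6 members were tested and 0 were called by edgeR, beside 0% of the 5256 genes tested. An unadjusted p under 0.05 was found for 1 of the 6, beside 284 of the 5256 genes. DESeq2, which gave no p for Il1b, called 0 of the other 5, beside 0.114%. Il33 was lower in GFP-positive libraries of 7 of 10 identifiers.

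Stromal markers were given beside Il33 because fibroblasts and endothelial cells can express it. Fibroblast markers summed to 0 to 2142 CPM in GFP-positive and 150 to 8912 CPM in GFP-negative libraries, and all 11 had counts. Endothelial markers, all 10 with counts, summed to 40.6 to 266 CPM in GFP-positive and 34.6 to 637 CPM in GFP-negative libraries. In library set 1, where the Il33 log2 fold change was -1.19, the fibroblast sums were 0 to 2142 CPM (median 153) in GFP-positive and 150 to 2462 CPM (median 187) in GFP-negative libraries. In library set 2, where it was -0.80, they were 173 to 1014 CPM in GFP-positive and 1150 to 8912 CPM in GFP-negative libraries, with no overlap. Over all libraries 6 of 6 tested fibroblast markers had a negative log2 fold change (median -2.49), and 1 of them, the matrix gene Fbln1, was called lower at -3.17 (SE 0.54, edgeR adjusted p = 0.0119). The part of these cells in the Il33 levels was not tested. The genes most like Il33 were Scd2, a fatty acid desaturase (r = 0.86), Upk3bl, a uroplakin-like protein (r = 0.79), and Tnpo2, a nuclear import receptor (r = 0.78).

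**Figure D5:**
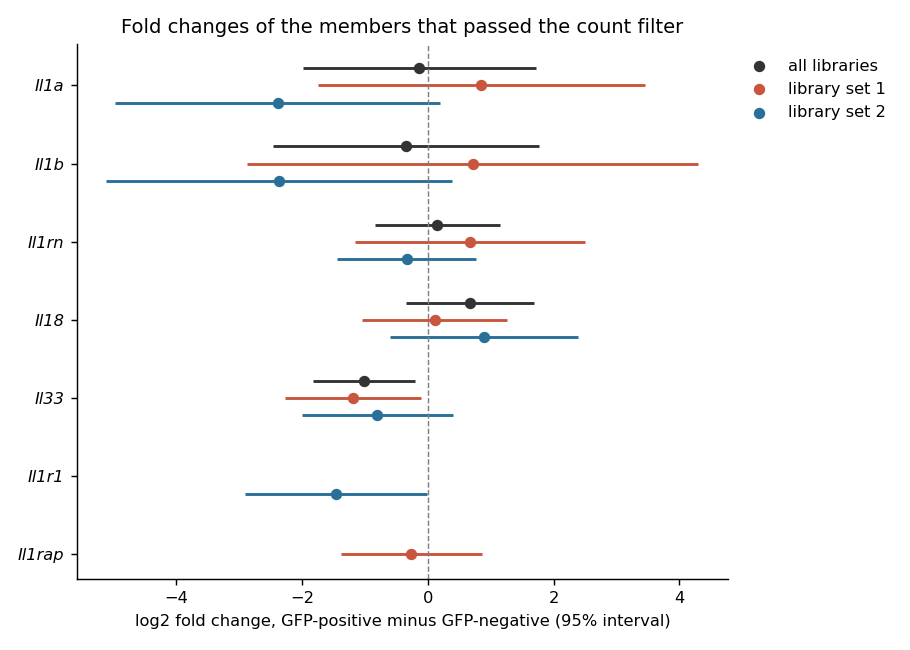
Log2 fold change, GFP-positive minus GFP-negative, with its 95% interval from edgeR, for each member that passed the count filter over all libraries, in library set 1 and in library set 2. Il33 is below 0 in all 3 fits, Il1a and Il1b are below 0 in library set 2 (-2.39 and -2.37) and above 0 in library set 1 (0.85 and 0.71), and no member passed the adjusted threshold in these fits.

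The receptors were measured with few counts. Il1r1 (ENSMUSG00000026072, chromosome 1, 40225080 to 40317257, plus strand), the signalling receptor of both agonists, had 281 counts over 8 of 11 GFP-positive libraries and 110 over 7 of 12 GFP-negative libraries. It ran from 0 through a median of 7.76 to 26.8 CPM in GFP-positive and from 0 through a median of 8.61 to 51.6 CPM in GFP-negative libraries. It passed the count filter in library set 2 alone, where GFP-negative 7, 8, 9 and 10 had 32.6, 35.95, 23.1 and 51.6 CPM and the other 2 GFP-negative libraries had 0, against 0 to 26.8 CPM in GFP-positive libraries. That set gave a log2 fold change of -1.46 (SE 0.70, 95% interval -2.90 to -0.01, unadjusted p = 0.0482, edgeR adjusted p = 0.721). The zeros of GFP-negative 11 and 12 allow up to 29.4 and 43.1 CPM, so they do not show absence. In library set 1 the Il1r1 medians ran the other way, at 10.4 CPM in GFP-positive (n = 5) and 3.91 CPM in GFP-negative libraries (n = 6). A fit of set 1 without the count filter gave 1.12 (SE 0.77, edgeR adjusted p = 0.675). Il1r1 was higher in GFP-positive libraries of 5 of 10 identifiers, lower in 4 and tied in 1.

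In library set 2, 6 members were tested and 0 were called by edgeR, beside 1.28% of the 6952 genes tested. Il1r1 was the 1 of 6 with an unadjusted p under 0.05, beside 478 of the 6952 genes. DESeq2 called 0 of the 6, beside 2.04%. Of the 6, 5 had a negative log2 fold change and the median was -1.13, beside a median of 0.07 over all genes tested in that set. Fibroblast marker sums, given since fibroblasts can express Il1r1, were 173 to 1014 CPM in GFP-positive and 1150 to 8912 CPM in GFP-negative libraries of the set, with no overlap, and 4 of the 8 tested markers were called lower by edgeR. Their part in the Il1r1 values was not tested.

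Il1rap (ENSMUSG00000022514, chromosome 16, 26581704 to 26730117, plus strand), the accessory chain shared by the IL-1 and IL-33 receptors, had 350 counts in GFP-positive and 137 in GFP-negative libraries. It ran from 0 through a median of 20.6 to 31.5 CPM in GFP-positive libraries (n = 11) and from 0 through a median of 7.59 to 50.8 CPM in GFP-negative libraries (n = 12). GFP-negative 3 and 6, with 50.8 and 41.2 CPM, were above every GFP-positive library. It passed the count filter in library set 1 alone, with a log2 fold change of -0.26 (SE 0.54, edgeR adjusted p = 0.969). In a fit without the count filter over all libraries it had 0.22 (SE 0.48, edgeR adjusted p = 0.892) and Il1r1 had -0.51 (SE 0.53, edgeR adjusted p = 0.758). Il1rap was higher in GFP-positive libraries of 7 of 10 identifiers, lower in 2 and tied in 1. These 7 rested on few GFP-negative counts. There were 0 in 7907 and 7968, 1 in 7914 and 2 in 7421. The others had 3 in 3034, 4 in 40-1 and 7 in 61-1. Pooled over libraries the order was the other way, at 18.6 CPM in GFP-positive and 22.5 CPM in GFP-negative libraries. GFP-negative 6 alone held 95 of the 137 GFP-negative counts.

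Il1rl1 (ENSMUSG00000026069, chromosome 1, 40429570 to 40465415, plus strand), which encodes the IL-33 receptor ST2, was close to the detection limit. It had 32 counts in 5 of 11 GFP-positive libraries and 2 counts in 1 of 12 GFP-negative libraries. GFP-positive 1, the deepest library, held 24 of the 32. Pooled over libraries this was 1.70 CPM in GFP-positive (exact Poisson 95% interval 1.16 to 2.40) and 0.329 in GFP-negative libraries (0.0398 to 1.19). Without GFP-positive 1 the pooled GFP-positive level was 0.548 (0.237 to 1.08), and the intervals, which cover counting error only, overlapped. GFP-positive 1 had the highest endothelial and fibroblast marker sums of the GFP-positive libraries, 266 and 2142 CPM, and a mast cell and basophil sum of 51.0 CPM against 5.35 to 108 CPM in the other GFP-positive libraries. Of the mast cell and basophil markers, Cma1 had the most counts, 647 over all libraries, and weighs most in that sum. In the fit without the count filter the log2 fold change of Il1rl1 was 2.05 (SE 1.05, edgeR adjusted p = 0.473). A difference in Il1rl1 between the populations was not detectable at this depth.

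Other genes of the pathway gave little more. Of the other ligands of the family, Il36b, Il36rn and Il1f10 had no count in any library and Il36a had 5 counts. Il36g, an epithelial IL-36 agonist, ran from 0 through a median of 4.72 to 33.1 CPM in GFP-positive libraries and from 0 through a median of 0 to 62.3 CPM in GFP-negative libraries, and was not tested. Of the 8 other receptors and soluble inhibitors 1 was tested over all libraries, the inhibitory receptor Sigirr, at -0.02 (SE 0.34, edgeR adjusted p = 0.997). The decoy receptor Il1r2 had 288 counts and the IL-18 receptor chain Il18r1 had 478 over all libraries.

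Of 21 genes of inflammasomes and cytokine processing 8 were tested over all libraries, 5 higher and 3 lower in GFP-positive libraries with a median log2 fold change of 0.38, and 0 were called. Pycard, the inflammasome adaptor ASC, averaged 80.5 ± 79.9 CPM (SD) over 11 GFP-positive and 40.8 ± 42.8 CPM over 12 GFP-negative libraries, a log2 fold change of 0.83 (SE 0.63, edgeR adjusted p = 0.997). Of 20 genes of receptor-proximal signalling 13 were tested, 5 higher and 8 lower with a median of -0.12, and 0 were called. Ube2v1, of the ubiquitin-conjugating complex that works with TRAF6, had 0.22 (SE 0.20, edgeR adjusted p = 0.997).

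Among genes that IL-1 is known to induce, and that other signals induce as well, Ccl2 and Vcam1 fell in GFP-positive libraries of library set 2. Over all libraries 16 of the 24 were tested, 8 higher and 8 lower in GFP-positive libraries, with a median of -0.01 and 0 called. In set 2, 18 were tested, 4 higher and 14 lower (median -0.53), and edgeR called 2 of the lower ones, beside 1.24% of all genes tested there. Ccl2, a monocyte chemokine, averaged 53.9 ± 23.3 CPM in GFP-positive and 278 ± 162 CPM in GFP-negative libraries of set 2 (SD, n = 6 each), with no overlap. Its log2 fold change was -2.31 (SE 0.37, edgeR adjusted p = 0.00082), called with each library left out in turn. Vcam1, a leukocyte adhesion molecule, averaged 11.5 ± 9.33 CPM in GFP-positive and 53.5 ± 28.1 CPM in GFP-negative libraries of set 2 (SD, n = 6 each), also with no overlap, a log2 fold change of -2.22 (SE 0.55, edgeR adjusted p = 0.0335). Vcam1 missed the threshold without GFP-negative 7, 8, 9 or 10 or GFP-positive 7, 8, 10 or 11 (adjusted p up to 0.247). Both missed it in a fit over all 23 libraries that shared 1 estimate of the spread (edgeR adjusted p = 0.879 for each). Over all libraries Ccl2 had -0.14 (SE 0.86) and Vcam1 had 0.04 (SE 0.85), and the differences between the sets were -3.04 for Ccl2 and -3.41 for Vcam1 (edgeR adjusted p = 0.762 for each). The macrophage and fibroblast sums of this set, given above, moved with them, and their part was not tested.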

How the data were processed

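Expected counts (estimated reads per gene), whole numbers as deposited by the authors, were made with Salmon 1.3.0 on mm10, per the submitters' processing notes. The sources used here do not give the annotation or Salmon's options. Reads shared by several transcripts are divided between them by its model. Per the labels' protocols, libraries were poly(A)-selected with a directional kit. All 23 sample columns matched a library name.

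GFP-positive and GFP-negative libraries were compared with edgeR 4.0.16 in R 4.3.3 (TMM, filterByExpr, robust quasi-likelihood fit, no covariate, Benjamini-Hochberg adjustment over all genes tested, threshold 0.05), over all libraries, within each library set, and for the interaction of group and set. The sets were split at the largest gap between library numbers. DESeq2 1.42.0 was an alternative. The procedure was tested on simulated counts with the same dispersion for every gene and no outlying library. That run does not show how the procedure performs on the wider spread of these data. CPM are counts over the library total. Annotation came from GENCODE M21. With no statement of separate animals, p-values measure the spread between libraries, which may be technical. Intervals and floors (3 counts) cover counting error only, and depth limits the precision of every value.

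Identifiers did not meet the rule for pairs: 5 of 10 correlations of deviations from the group means exceeded 0.1 (-0.22 in 7789-7795 to 0.40 in 3034). For the replicate numbers of the titles 2 of 11 did (-0.17 to 0.40). The fits without a block treat libraries that share an identifier as separate. The members and lists were chosen with earlier results of these data known. Genes named are the 8 members, the pathway genes called in a fit (otherwise the most counted of each list), the 3 genes most correlated with each tested member (1 of those for Il1rn is not reported here), and Basp1. Other genes named in passing (Il36a, Il36b, Il36rn, Il1f10, Il1r2, Il18r1) and the markers Fbln1, Camp, Ly6g, S100a8 and Cma1 were chosen after their values were seen.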

Additional observations from a re-analysis of the deposited data

Results flagged for a closer look

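Within each library set, the highest and lowest library of each population was compared with the others for each member (31 groups with any spread, of 5 or 6 libraries). In 10 of these groups 1 library stood further from its neighbour than Dixon's 95% limit allows, where chance gives about 1 in 20 for normally spread values. These CPM values are skewed and hold zeros, so that rate does not carry over to them.

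GFP-positive 3 was apart from the other GFP-positive libraries of set 1 in Il1a (504 CPM, next highest 83.7), Il1b (1748 CPM, next 234) and Il1rn (972 CPM, next 196). GFP-negative 1 was apart from the other GFP-negative libraries of set 1 in the same genes, Il1a (292 CPM, next 78.6), Il1b (1248 CPM, next 86.6) and Il1rn (508 CPM, next 178). Their macrophage marker sums, 37077 and 8780 CPM, were the highest of their groups, and the part of these cells was not tested.

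In set 2, GFP-positive 6 stood apart in Il1a (70.7 CPM, next 22.6) and GFP-positive 7 in Il33 (47.9 CPM, next 22.2). Il1rl1 was flagged at 5.66 CPM (24 counts) in GFP-positive 1 and at 0.868 CPM (2 counts) in GFP-negative 6, the other libraries of set 1 in each population being at 0, which alone sets those 2 flags.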

How the results depend on the processing

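No alternative brought a member past the threshold over all libraries. Over all genes, edgeR called 1 gene over all libraries, 24 with DESeq2, 2 with a replicate block by identifier, 0 with a replicate block by title number, 115 with the identifier block without 7789-7795 and libraries under 100000 counts (chosen after seeing the data; 0 members called), and 0 to 16 with 1 library left out. Set 1 gave 0 calls, 6 with DESeq2, 3 in the shared fit of both sets, and 0 to 6 with 1 library left out. Set 2 gave 89 calls, 375 without the count filter, 142 with DESeq2, 140 with the block, 2 in the shared fit, and 65 to 118 with 1 library left out. The interaction gave 0 calls, 1 without the filter, 4 with DESeq2, and 0 to 6 with 1 library left out. With the replicate block by identifier, set 2 gave 1 called member, Il1a at -2.14 (edgeR adjusted p = 0.0267); the pairing did not meet the rule for pairs.

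Il1rn over all libraries turned to -0.14 with the block by identifier, -0.19 with the block by title number and -0.56 with the block without 7789-7795 and shallow libraries. Il1b over all libraries, -0.35 without a block, was -2.02 with the block by identifier, -1.56 by title number and -2.77 in that last fit (edgeR adjusted p = 0.112). In set 1 the block turned Il1a to -0.079, Il1b to -0.035 and Il18 to -0.014. With 1 library left out, over all libraries Il1a ran from -1.62 to 0.29, Il1b from -2.16 to 0.14 and Il1rn from -0.41 to 0.33; in set 1 Il1a ran from -0.93 to 2.44, Il1b from -1.93 to 3.33, Il1rn from -0.73 to 1.34 and Il18 from -0.43 to 0.44; the interaction ran from -1.70 to 0.35 for Il1rn, from -4.81 to -1.52 for Il1a and from -5.73 to -0.47 for Il1b. In set 2 Il33 ran from -1.16 to -0.32. The causes were not tested. Depth limited the receptors most.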
